A study of Mus musculus with 7 samples.

Results

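The genes described here encode the enzymes of the tricarboxylic acid (TCA) cycle, the enzymes that feed pyruvate, glutamine and glutamate into it, and the carriers and enzymes of the mitochondrial shuttles. They were taken by gene symbol from a list of 28 genes, chosen for their place in the pathway with earlier results of these data known. Of these, 27 were among the 16156 genes of the count table, and the glutaminase gene Gls2 was not analysed here. The study compared ACLY KO and WT CD8 T cells from mice. ACLY, ATP citrate lyase, splits citrate in the cytosol into acetyl-CoA and oxaloacetate. There were 3 ACLY KO libraries and 4 WT libraries of total RNA. Both genotypes were OT-I cells, whose transgenic T cell receptor recognises an ovalbumin peptide, and both carried a congenic mark. The hosts were C57Bl/6 mice, which received the cells 1 day ahead of Listeria carrying ovalbumin (LmOVA), and the cells were recovered 6 days after infection. How the knockout was made, and whether each library came from 1 animal, is not given in the sources used here, so p-values speak only for the spread among these libraries.

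In the TCA cycle, citrate synthase joins acetyl-CoA to oxaloacetate. The citrate formed is either oxidised further in mitochondria, through isocitrate, alpha-ketoglutarate, succinyl-CoA, fumarate and malate, or exported to the cytosol, where ACLY splits it. Activated T cells use the cycle both for energy and as a source of building blocks, and glutamine enters it through glutamate and alpha-ketoglutarate. The malate-aspartate shuttle moves the reducing power of cytosolic NADH into mitochondria.

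Gene counts summed to 37473484 to 39692359 in the KO libraries and 45288353 to 75586011 in the WT libraries, so every KO library was shallower. In CPM, a count divided by the scaled library total, Acly itself was at 262, 62.0 and 209 CPM across KO replicates 1 to 3, against 393, 339, 414 and 276 CPM across WT replicates 1 to 4. Reads of all exons are pooled in these counts, so they do not tell whether a deleted exon was read. Libraries also differed in the transcripts of other cells. Markers of CD8 T cells (6 of 6 measured, led by Cd8b1 and Trac) summed to 2368, 6228 and 5987 CPM across KO replicates 1 to 3. In WT they summed to 5988 to 7096 CPM, so only KO replicate 1 was far below. B cell markers (8 of 8, led by Ighm and Cd79a) summed to 624 to 8621 CPM in KO and 244 to 677 CPM in WT, where Ms4a1 had no read in WT replicates 1 and 4 and Pax5 none in WT replicates 2 to 4. Myeloid markers (8 of 8, led by Lyz2 and Csf1r) summed to 62.7 to 1158 CPM in KO and 16.3 to 29.6 CPM in WT. Red cell markers (6 of 6, led by Hbb-bs and Hba-a1) summed to 238 to 46340 CPM in KO and 1.48 to 468 CPM in WT. Markers of CD4 T cells (2 of 3, Cd4 and Cd40lg) summed to 6.12 to 141 CPM in KO and 2.001 to 16.3 CPM in WT. These 2 genes differed. Cd4 was at 110, 1.19 and 6.19 CPM across KO replicates 1 to 3 and at most 0.157 CPM in WT, with no read in WT replicates 1 and 3. Cd40lg was at 31.1, 4.94 and 8.52 CPM across KO replicates 1 to 3, against 16.3, 13.4, 13.2 and 1.88 CPM across WT replicates 1 to 4. KO replicate 1 held the highest sum of each of these 4 lists of other cells. The Trbv12 segments, to which the OT-I receptor belongs, took 46.7%, 23.2% and 61.8% of Trbv counts in KO replicates 1 to 3, against 99.0%, 99.2%, 99.0% and 84.5% in WT replicates 1 to 4. WT replicate 4 stood apart by its proliferation markers (8 of 8, led by Top2a and Mki67), at 1844 CPM, where WT replicates 1 to 3 had 83.7 to 103 CPM. In the KO libraries these markers summed to 54.4 to 416 CPM. In such mixtures fewer cells of a type and less RNA per cell cannot be told apart.

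Most genes of the module differed little between the genotypes. The log2 difference of KO over WT was under 0.5 in size for 21 of 27 genes (77.8%), and for 60.4% of all genes. Sucla2, the ATP-forming beta subunit of succinyl-CoA synthetase, and Me2, the mitochondrial malic enzyme, were the only members with every KO library below every WT library. No member lay wholly above. Among all genes 9.03% lay wholly below and 9.46% wholly above, so the 2 of 27 members (7.41%) that lay wholly below were close to the background. By edgeR's quasi-likelihood test with Benjamini-Hochberg adjustment over all genes, 0 members passed at an adjusted p under 0.05, as did 0% of all genes in each direction. At an unadjusted p under 0.05 there were 3 members lower (Sucla2, Me2 and Mdh1), or 11.1%, against 7.89% of all genes. There was 1 member higher (Idh1), or 3.70%, against 11.0% of all genes. DESeq2 called 2 members lower, Sucla2 and Me2, where it called 3.22% of all genes lower. limma voom with quality weights called the same 2 members lower, where it called 1.68% of all genes lower. The median log2 difference was -0.12 over the 27 members and 0.00 over all genes, and 19 of the 27 members (70.4%) were below 0. Without WT replicate 4 the members' median was -0.059.

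**Figure D1:**
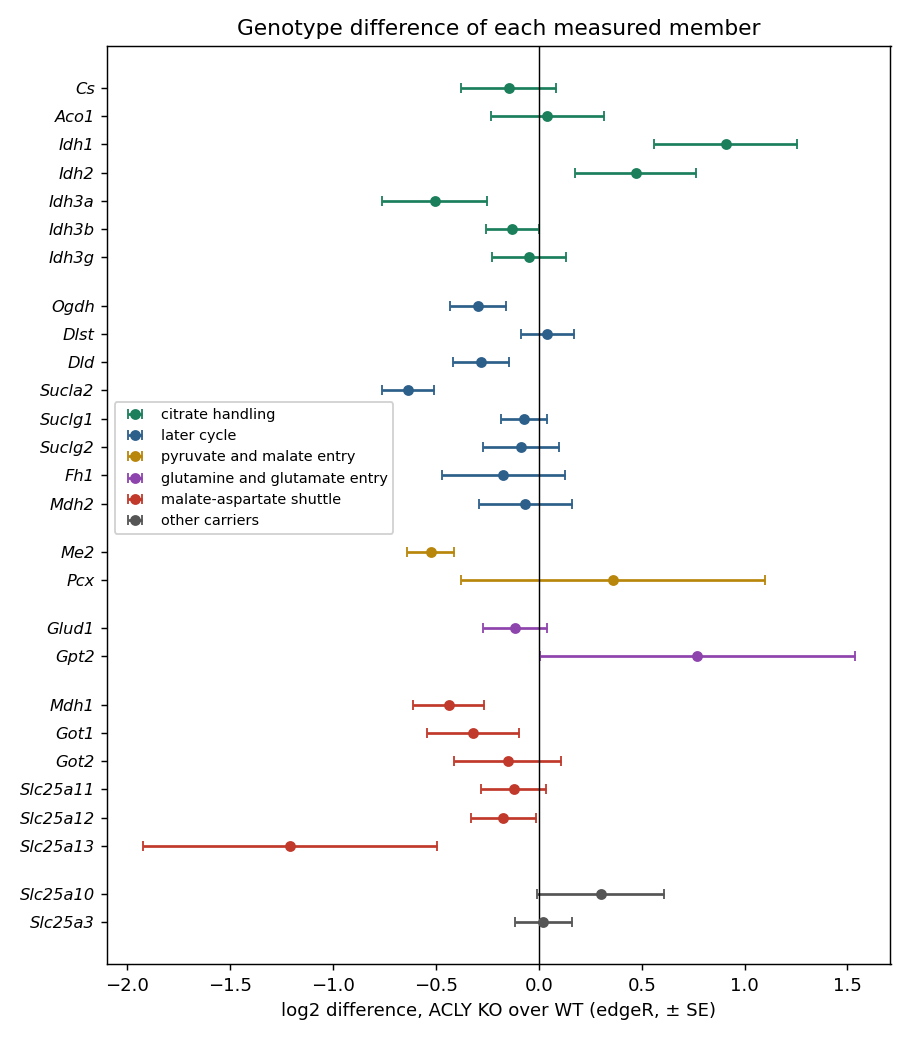
The log2 difference of ACLY KO over WT is plotted on the horizontal axis for each of the 27 measured members, with its standard error from edgeR as the bar, and members are grouped and coloured by role. Sucla2 (-0.64) and Me2 (-0.53) lie below 0 with short bars, while Slc25a13 (-1.21), Pcx (0.36) and Gpt2 (0.77) have the longest bars.

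Succinyl-CoA synthetase makes a nucleoside triphosphate from succinyl-CoA. Suclg1 encodes its shared alpha subunit, and the beta subunit is either the ATP-forming SUCLA2 or the GTP-forming SUCLG2. Sucla2 (ENSMUSG00000022110, plus strand of chr14:73525319-73596142 in mm10) was at 84.3, 79.7 and 71.6 CPM across KO replicates 1 to 3, against 119, 136, 109.5 and 123 CPM across WT replicates 1 to 4. The groups did not overlap, and both were tight. It averaged 78.5 ± 6.43 CPM (SD) over the 3 KO libraries and 122 ± 11.2 CPM (SD) over the 4 WT libraries, 0.644 of the WT level in the fit. The log2 difference of -0.64 ± 0.13 (SE) did not pass edgeR's test after adjustment (adjusted p = 0.0710), but passed DESeq2 (adjusted p = 0.000637) and, narrowly, limma voom (adjusted p = 0.04996). The partner subunits had values closer to WT. Suclg1 was at 103, 128 and 115 CPM across KO replicates 1 to 3, against 126, 119, 118 and 123 CPM across WT replicates 1 to 4. Suclg2 was at 27.3, 34.0 and 42.6 CPM across KO replicates 1 to 3, against 33.2, 35.7, 39.7 and 38.4 CPM across WT replicates 1 to 4. For both genes the groups overlapped, with log2 differences of -0.07 ± 0.11 for Suclg1 and -0.09 ± 0.19 for Suclg2 (SE). In Suclg2 the KO libraries spread more widely than the WT libraries.

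Because the subunits of this 1 enzyme gave unlike values, the 100 bases before the transcription start of each gene are shown from RefSeq (GRCm38.p6, the build that mm10 names), with each CG pair in capitals. They lie on chr14:73552686-73552785 (plus strand) for Sucla2, chr6:73248405-73248504 (plus strand) for Suclg1 and chr6:95718847-95718946 (minus strand) for Suclg2. The RefSeq starts of Sucla2 and Suclg1 lie inside the longer GENCODE genes, which begin at 73525319 and 73248382, so the bases printed for both are within those gene models.
Sucla2: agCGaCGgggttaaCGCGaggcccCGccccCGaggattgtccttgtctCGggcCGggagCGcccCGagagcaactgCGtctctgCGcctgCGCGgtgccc
Suclg1: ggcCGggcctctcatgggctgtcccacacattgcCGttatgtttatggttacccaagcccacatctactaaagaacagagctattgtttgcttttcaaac
Suclg2: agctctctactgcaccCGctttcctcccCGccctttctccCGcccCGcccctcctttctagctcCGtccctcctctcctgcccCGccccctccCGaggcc

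Over the 250 bases before the start, Sucla2 held 18 CG pairs, Suclg1 15 and Suclg2 8. The median over 27018 RefSeq genes, measured here or not, was 6 (quartiles 2 and 17), taking the highest window of each gene. No comparison was made with measured genes only. The letters of 4 motifs were searched on both strands in windows from 250 bases before to 50 bases after the start, for the 25 members found in the RefSeq table. For these motifs, all genes means the 27025 genes of that table, measured here or not. A gene with several windows was counted if any of them matched. GCGCATGC, a core of the NRF1 motif, was in the windows of 2 members (8%), Glud1 and Ogdh, and of 3.05% of all genes. CCGGAAG, an ETS motif, was in those of 5 members (20%: Dlst, Glud1, Idh3b, Idh3g and Slc25a3) and of 9.93% of all genes. The E-box CACGTG was in those of 3 members (12%: Ogdh, Pcx and Slc25a13) and of 8.09% of all genes. TCAAGGTCA, the motif of estrogen-related receptors, was in those of 0 members and of 0.466% of all genes. None of the 4 was found in the windows of the 3 synthetase genes, and these matches describe letters, not binding.

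Citrate is made by citrate synthase (Cs), turned into isocitrate by aconitase and oxidised to alpha-ketoglutarate by isocitrate dehydrogenases. Of the 7 genes of this step 4 were below 0 and 3 above. Their median difference on the log2 scale was -0.05 and turned to 0.082 without WT replicate 4. Cs was at 219.5, 175 and 230.5 CPM across KO replicates 1 to 3, against 206, 179, 207 and 331 CPM across WT replicates 1 to 4. KO replicates 1 and 3 lay above and KO replicate 2 below WT replicates 1 to 3, and WT replicate 4 was above all (log2 difference -0.15 ± 0.23, SE). Aco1, the cytosolic aconitase, which also serves as an iron sensor, was at 44.7 to 46.8 CPM in KO and 23.7 to 53.8 CPM in WT, and only WT replicate 4 was below KO.

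Idh1, the cytosolic isocitrate dehydrogenase that makes NADPH, was at 40.1, 14.1 and 24.5 CPM across KO replicates 1 to 3, against 15.4, 16.4, 12.5 and 11.7 CPM across WT replicates 1 to 4. KO replicates 1 and 3 were above every WT library, and KO replicate 2 was among them. The log2 difference was 0.91 ± 0.35 (SE; edgeR adjusted p = 0.222), and 0.47 without KO replicate 1. KO replicates 1 and 3 also held the higher myeloid marker sums (1158 and 905 CPM, against 62.7 CPM in KO replicate 2), whose part in this difference was not tested. Idh2, the mitochondrial NADPH-making form, was at 57.2, 105 and 55.2 CPM across KO replicates 1 to 3, against 46.3, 45.4, 43.6 and 74.4 CPM across WT replicates 1 to 4. Here KO replicate 2 was the highest library, and without it the log2 difference of 0.47 ± 0.30 (SE) was 0.10. Each KO library was above WT replicates 1 to 3 for Idh2, but WT replicate 4 was above KO replicates 1 and 3.

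Idh3a, Idh3b and Idh3g encode the subunits of the NAD-dependent isocitrate dehydrogenase of the cycle. Idh3a, the catalytic subunit, was at 101, 120.2 and 162 CPM across KO replicates 1 to 3, against 153.5, 150.5, 159 and 262 CPM across WT replicates 1 to 4. KO replicates 1 and 2 were below every WT library, and KO replicate 3 was above WT replicates 1 to 3 (log2 difference -0.51 ± 0.26, SE; edgeR adjusted p = 0.342). The value was -0.27 without WT replicate 4. Idh3b was at 124 to 143 CPM in KO and 134 to 171 CPM in WT, and Idh3g at 138 to 153 CPM in KO and 126 to 198 CPM in WT, with overlapping groups for both.

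**Figure D2:**
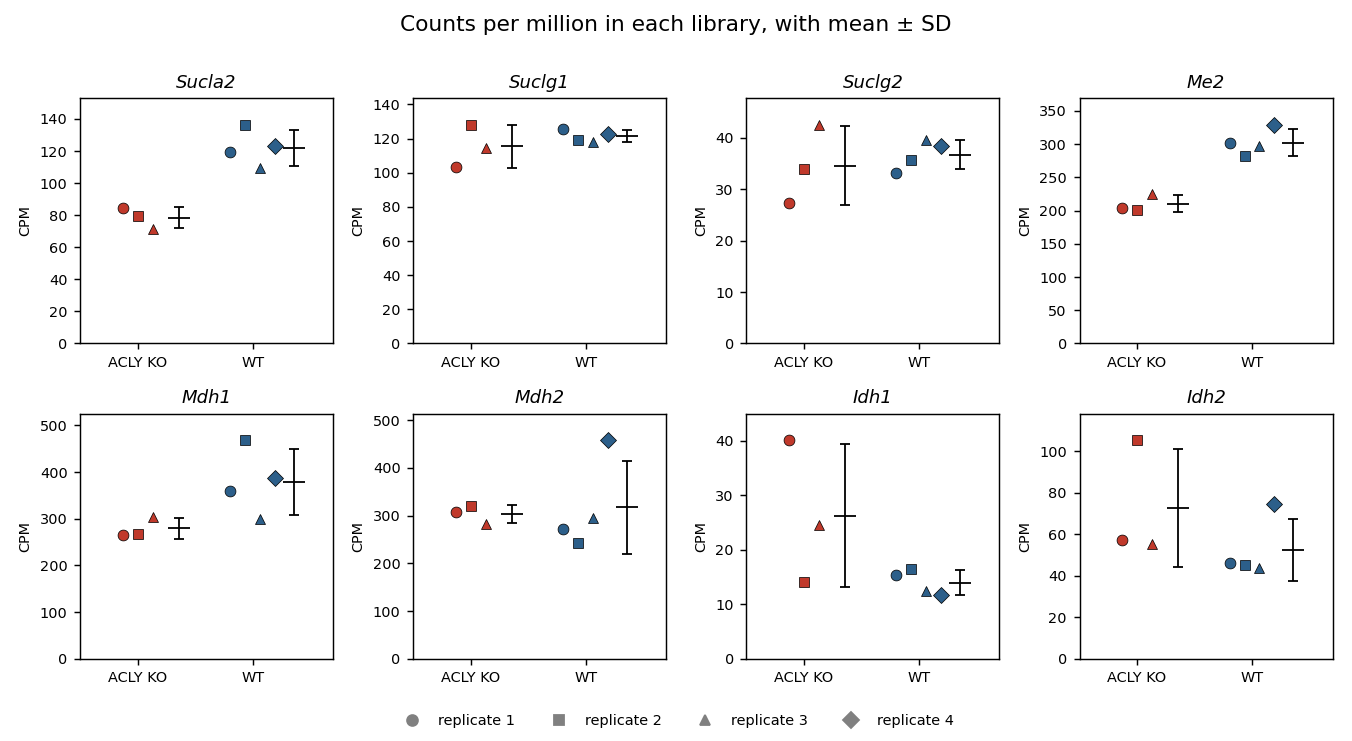
CPM is plotted for 8 members in each library, KO in red and WT in blue, with the symbol's shape for the replicate number and the mean ± SD beside the points. Sucla2 and Me2 show separate groups, Suclg1 and Suclg2 overlapping ones, and the KO means of Idh1 and Idh2 rest on different libraries.

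After alpha-ketoglutarate, 7 of 8 genes of the later cycle were below 0 (median log2 difference -0.13, and -0.06 without WT replicate 4). Sucla2 was the largest difference among them. Without WT replicate 4, Fh1 (0.07) and Mdh2 (0.17) turned above 0. Ogdh and Dlst encode the alpha-ketoglutarate dehydrogenase and the succinyltransferase of one complex, and Dld encodes the dihydrolipoamide dehydrogenase that this complex shares with pyruvate dehydrogenase. Ogdh was at 359, 336 and 394 CPM across KO replicates 1 to 3, against 443, 388, 495 and 456 CPM across WT replicates 1 to 4. Only KO replicate 3 and WT replicate 2 overlapped (log2 difference -0.30 ± 0.14, SE; edgeR adjusted p = 0.297). Dld was at 99.5 to 115 CPM in KO and 110 to 145 CPM in WT (log2 difference -0.28 ± 0.14, SE; adjusted p = 0.322). Dlst, in contrast, was at 122 to 136 CPM in KO and 115 to 148 CPM in WT (log2 difference 0.04 ± 0.13, SE). Fh1, fumarase, was at 41.9 to 75.8 CPM in KO and 45.0 to 91.5 CPM in WT.

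Malate is oxidised to oxaloacetate by Mdh2 in mitochondria and is made from it by Mdh1 in the cytosol. Mdh2 was at 307, 319 and 283 CPM across KO replicates 1 to 3, against 271, 242, 296 and 458 CPM across WT replicates 1 to 4. KO replicates 1 and 2 were above WT replicates 1 to 3, and WT replicate 4 was far above all others, so the log2 difference of -0.07 ± 0.23 (SE) became 0.17 without WT replicate 4. Mdh1 was at 266, 268 and 305 CPM across KO replicates 1 to 3, against 359, 469, 299 and 388 CPM across WT replicates 1 to 4. Only WT replicate 3 reached down to the KO libraries. The log2 difference was -0.44 ± 0.17 (SE), with an unadjusted p of 0.0359 and an adjusted p of 0.230 in edgeR. Exons of Mdh1 share 52 bases with Wdpcp.

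Me2 turns malate into pyruvate in mitochondria. Me2 (ENSMUSG00000024556, minus strand of chromosome 18, start 73769903, end 73815449) was at 204, 201 and 225 CPM across KO replicates 1 to 3, against 302, 282, 297 and 329 CPM across WT replicates 1 to 4. The groups did not overlap, and the gap between them was wider than the range of either. It averaged 210.0 ± 12.7 CPM (SD) over the 3 KO libraries and 302 ± 19.9 CPM (SD) over the 4 WT libraries, 0.695 of the WT level in the fit. The log2 difference was -0.53 ± 0.12 (SE; edgeR adjusted p = 0.0832), and DESeq2 (adjusted p = 0.00103) and limma voom (adjusted p = 0.0374) called it lower. Pcx, pyruvate carboxylase, which makes oxaloacetate from pyruvate, was at 14.8, 1.56 and 3.84 CPM across KO replicates 1 to 3 and 3.46 to 9.003 CPM in WT. Its sign turned with KO replicate 1: the log2 difference was 0.36 ± 0.74 (SE) in all libraries and -0.96 without KO replicate 1.

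For Sucla2 and Me2 the difference held in size whichever library was left out, from -0.69 to -0.57 for Sucla2 and from -0.58 to -0.48 for Me2. Neither passed edgeR's adjusted test with any 1 library left out. The edgeR adjusted p rose to 0.242 for Sucla2 and 0.266 for Me2 without WT replicate 1. Without KO replicate 1 and WT replicate 4 together, edgeR called 1 member, Sucla2 (log2 difference -0.67, adjusted p = 0.0429), where it called 4.13% of all genes lower. Me2 was then at -0.44 (adjusted p = 0.0623). Every KO library had more myeloid marker CPM (62.7 to 1158) than any WT library (16.3 to 29.6), and a lower Trbv12 share. Their part in these differences was not tested.

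Glutamate enters the cycle through glutamate dehydrogenase (Glud1) or by transamination, for which Gpt2 encodes the mitochondrial alanine aminotransferase. Glud1 was at 182, 240.3 and 272 CPM across KO replicates 1 to 3 and 234 to 265 CPM in WT, so that KO replicate 1 lay below and KO replicate 3 above all WT libraries (log2 difference -0.12 ± 0.16, SE). Gpt2 was low everywhere, at 0.333 to 2.73 CPM in KO and 0.469 to 1.59 CPM in WT, from 13 to 102 reads a library.

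All 6 genes of the malate-aspartate shuttle were below 0 (median log2 difference -0.25, against 0.00 over all genes). None of them passed, and the KO and WT libraries overlapped for each. The shared sign depended on single libraries. Without KO replicate 3, Slc25a11 was at 0.0071. WT replicate 4 was the highest library for Got1, Got2, Slc25a11 and Slc25a13. Leaving it out turned Got2 to 0.13 and moved Slc25a13 from -1.21 to -0.38. Got1 was then at -0.12 and Slc25a11 at -0.06. Mdh1 stayed at -0.43, and Slc25a12 moved the other way, from -0.17 to -0.27. Mdh1 is described above. The aspartate aminotransferases are Got1 in the cytosol and Got2 in mitochondria. Got1 was at 34.7, 31.8 and 31.1 CPM across KO replicates 1 to 3, against 32.4, 32.9, 41.0 and 56.2 CPM across WT replicates 1 to 4. Got2 was at 71.1, 63.5 and 57.4 CPM across KO replicates 1 to 3, against 61.4, 52.1, 62.3 and 108.5 CPM across WT replicates 1 to 4. For both genes the groups overlapped and WT replicate 4 was the highest library. Exons of Got2 share 434 bases with the gene model Gm45760, so its level is uncertain. Slc25a11, the carrier that exchanges malate for alpha-ketoglutarate, was at 108 to 159 CPM in KO and 133 to 161 CPM in WT, and shares 189 exon bases with Rnf167.

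Slc25a12 and Slc25a13 encode the carriers that exchange aspartate for glutamate. Slc25a12 was at 65.8, 68.3 and 70.8 CPM across KO replicates 1 to 3, against 87.5, 77.1, 83.9 and 59.2 CPM across WT replicates 1 to 4. The KO libraries were below WT replicates 1 to 3 and above WT replicate 4. Slc25a13 was at 5.93, 6.73 and 1.77 CPM across KO replicates 1 to 3, against 6.28, 6.33, 6.26 and 25.7 CPM across WT replicates 1 to 4. WT replicates 1 to 3 had nearly the same value, and the log2 difference of -1.21 ± 0.71 (SE) was -0.38 without WT replicate 4. Of the other carriers, Slc25a10, which exchanges dicarboxylates for phosphate, was at 11.9 to 18.4 CPM in KO and 9.47 to 19.0 CPM in WT. Slc25a3, the phosphate carrier, was at 305 to 400.3 CPM in KO and 315 to 375 CPM in WT.

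The balance within 5 pairs of related members was compared as a ratio of CPM per kilobase of exon, by an exact two-sided permutation test of the log2 ratio with adjustment over the 5 pairs (the smallest p that 3 against 4 libraries can give is 0.0286). A pair on its own could reach no adjusted p under 0.143, so the values are given as a description. The ratio of Sucla2 to Suclg2 was 3.58, 2.72 and 1.95 in KO replicates 1 to 3, against 4.16, 4.43, 3.20 and 3.71 in WT replicates 1 to 4. The KO ratios were lower in replicates 2 and 3 than in any WT library, and KO replicate 1 was above WT replicate 3 only (difference of log2 ratios -0.53, exact permutation p = 0.0857, adjusted p = 0.429). This difference was -0.30 without KO replicate 3. The ratio of Mdh1 to Mdh2 was 1.17 to 1.5 in KO and 1.18 to 2.68 in WT (difference -0.40, exact permutation p = 0.343, adjusted p = 0.571), and the difference was -0.18 without WT replicate 2. The ratio of Got1 to Got2 was 0.929 to 1.03 in KO and 0.984 to 1.25 in WT (difference -0.19, exact permutation p = 0.2, adjusted p = 0.5). For Idh1 to Idh2 the ratio was 0.655, 0.125 and 0.415 in KO replicates 1 to 3 and 0.147 to 0.338 in WT, so that KO held both the highest and the lowest library (difference 0.36, exact permutation p = 0.629, adjusted p = 0.629). Without KO replicate 1 it was -0.15, without KO replicate 2 1.04, without KO replicate 3 0.18 and without WT replicate 4 0.094. For Slc25a12 to Slc25a13 it was 5.25 to 20.7 in KO and 1.19 to 7.22 in WT (difference 0.96, exact permutation p = 0.571, adjusted p = 0.629). That difference was 0.33 without WT replicate 4 and 0.32 without KO replicate 3.

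**Figure D3:**
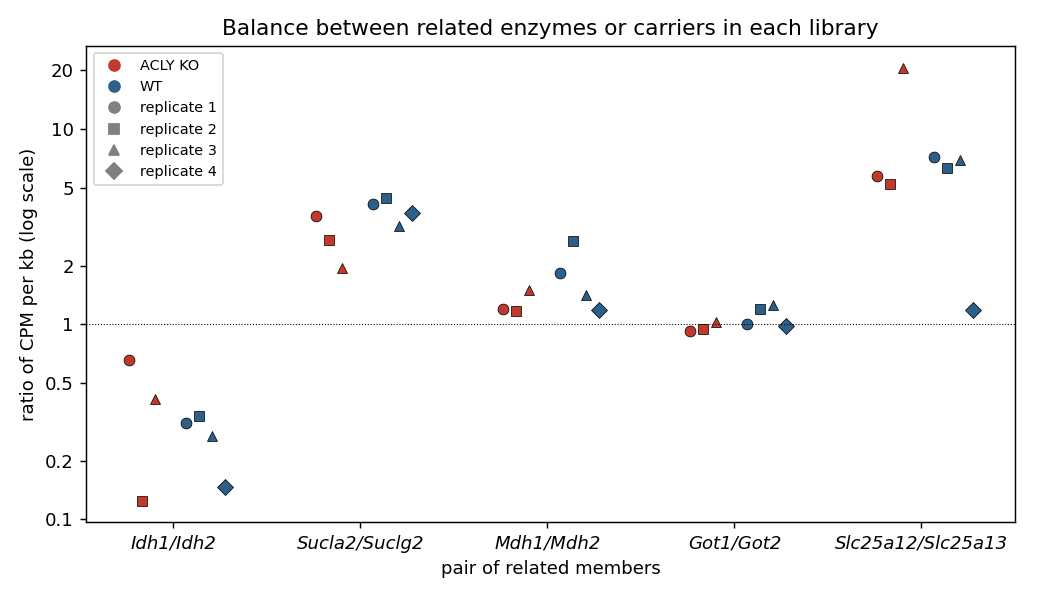
The ratio of CPM per kilobase between related members is plotted on a log scale for each library, KO in red left of WT in blue, with the symbol's shape for the replicate number. The groups overlap in all 5 pairs, and WT replicate 4 lies lowest for Slc25a12 to Slc25a13 at 1.19.

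By level per kilobase of exon, averaged over the 7 libraries, Mdh1 was the highest member at 131 CPM per kb, followed by Mdh2 at 87.3 and Ogdh at 75.2 CPM per kb. Slc25a11, Slc25a3, Glud1 and Idh3g followed at 54.0 to 65.7 CPM per kb. Idh3b, Cs, Me2, Dld, Idh3a, Sucla2, Suclg1 and Idh2 lay at 23.6 to 41.2 CPM per kb, and Fh1, Got1, Got2 and Dlst at 13.3 to 17.5 CPM per kb. Slc25a12, Aco1, Suclg2, Idh1, Slc25a10, Slc25a13, Pcx and Gpt2 were all under 10 CPM per kb, down to 0.199 CPM per kb for Gpt2. The alpha subunit Suclg1 (25.7 CPM per kb) was thus close to Sucla2 (25.9 CPM per kb) and above Suclg2 (7.75 CPM per kb). These lengths take in all annotated exons, so a gene with many rarely used exons reads too low.

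Within WT, replicate 4 stood apart in many genes of the module. WT replicate 4 was above WT replicates 1 to 3 for 17 of 27 members (63.0%), against 38.0% of all genes, and below them for 3 (11.1%: Aco1, Idh1 and Slc25a12), against 40.8% of all genes. Its members' median log2 excess over the mean of WT replicates 1 to 3 was 0.31. It was 0.59 for the citrate-handling genes and 0.16 for the later cycle. The summed level of the 7 citrate-handling genes was 742, 740 and 791 CPM across KO replicates 1 to 3, against 746, 702, 749 and 1072 CPM across WT replicates 1 to 4. KO replicates 1 and 2 lay within the range of WT replicates 1 to 3, KO replicate 3 just above it, and WT replicate 4 far above all. The 8 later-cycle genes summed to 1180, 1197 and 1175 CPM across KO replicates 1 to 3, against 1281, 1233, 1337 and 1582 CPM across WT replicates 1 to 4. These sums did not overlap, and the difference was not tested. Of the 8 genes only Sucla2 had separate groups by itself, and the sum weighs high genes most. Ogdh, with the highest mean, averaged 363 CPM in KO and 446 CPM in WT, with overlapping groups. WT replicate 4 was also the library with the highest proliferation marker sum, and its part in these levels was not tested. The genotypes were also separate in myeloid marker CPM (62.7 to 1158 in KO, 16.3 to 29.6 in WT). Trbv12 shares were lower in every KO library than in any WT library. The part of these in the later-cycle sums was not tested.

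**Figure D4:**
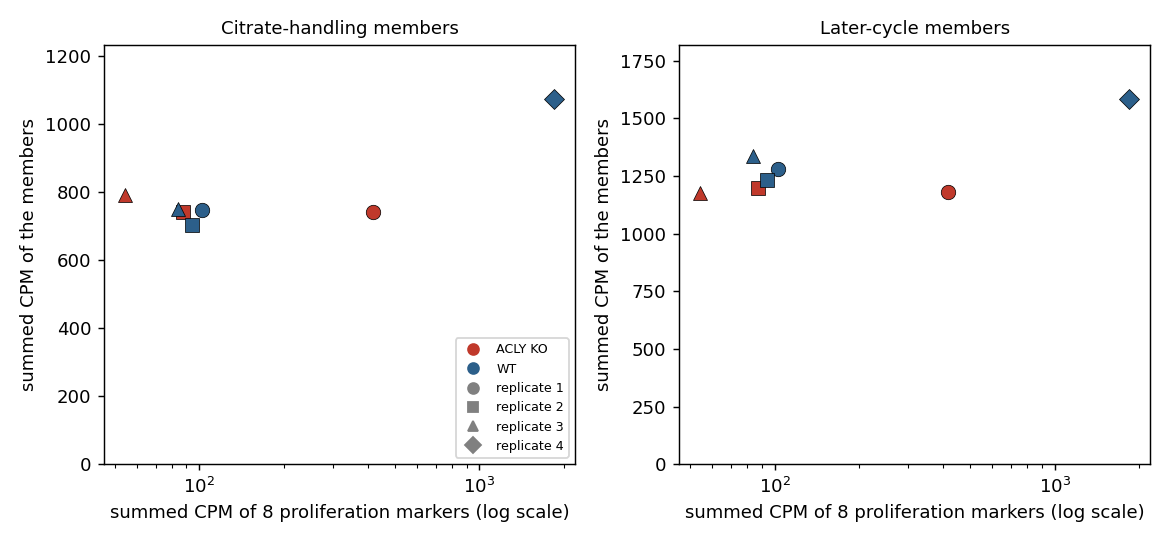
The summed CPM of the 7 citrate-handling members (left) and the 8 later-cycle members (right) is plotted against the summed CPM of 8 proliferation markers on a log scale, KO in red and WT in blue. WT replicate 4 lies at the top right of both panels (1072 and 1582 CPM), while the KO libraries lie at 740 to 791 CPM on the left panel and under every WT library on the right.

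**Figure D5:**
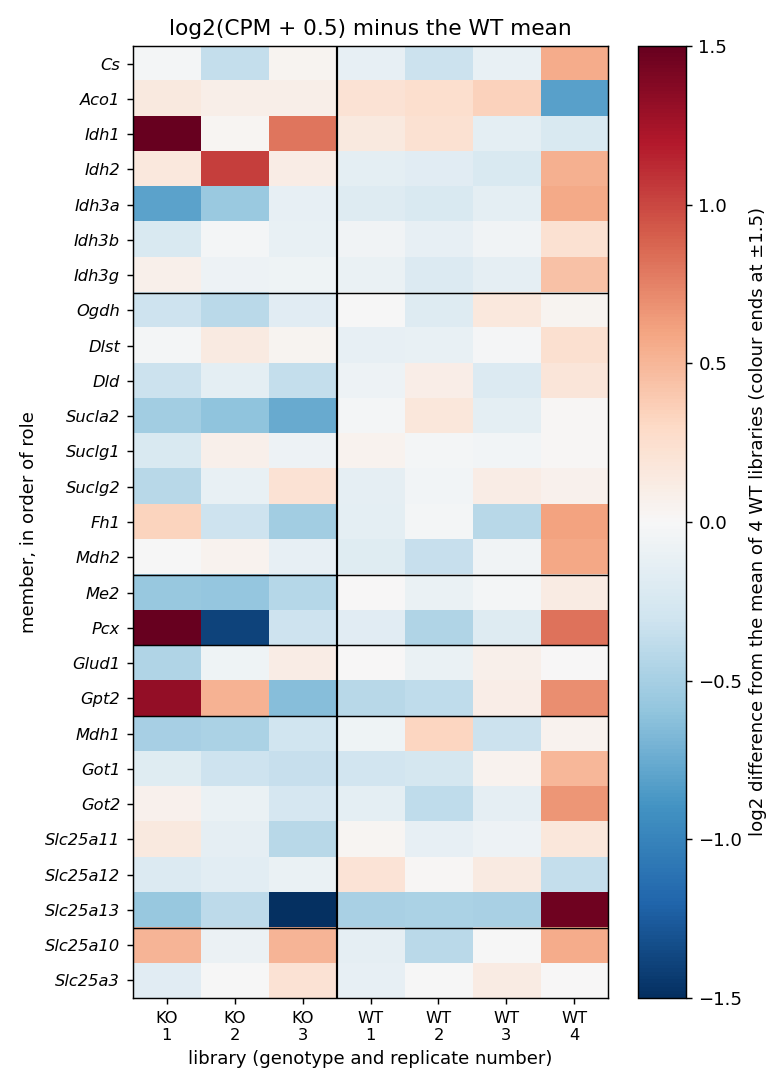
Colour gives the log2 of CPM + 0.5 in each library minus the mean of the 4 WT libraries, with members as rows in order of role and libraries as columns, KO before WT. Sucla2 and Me2 are blue in all 3 KO columns, and the WT replicate 4 column is red for most members except Aco1, Idh1 and Slc25a12.

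Of a list of 27 genes next to the module in the pathway 23 were measured, 14 below 0 and 9 above, with a median log2 difference of -0.12. None passed edgeR's adjusted test. At an unadjusted p under 0.05 there were 4 lower (17.4%, against 7.89% of all genes) and 2 higher (8.7%, against 11.0%). There were 4 wholly below the WT libraries (17.4%, against 9.03% of all genes) and 2 wholly above (8.7%, against 9.46%). Sdhb, the iron-sulfur subunit of succinate dehydrogenase, the enzyme after succinyl-CoA synthetase, was at 174, 191 and 187 CPM across KO replicates 1 to 3, against 236, 244, 224 and 310 CPM across WT replicates 1 to 4. The groups did not overlap (log2 difference -0.46 ± 0.15, SE; edgeR adjusted p = 0.155). Sdhd, its membrane anchor, was at 129 to 161 CPM in KO and 156 to 206 CPM in WT (log2 difference -0.40 ± 0.15, SE; adjusted p = 0.214). Mpc1, a subunit of the mitochondrial pyruvate carrier, was at 13.1 to 15.8 CPM in KO and 16.7 to 26.1 CPM in WT (adjusted p = 0.190). Slc25a4, an ADP/ATP carrier, was at 119 to 162 CPM in KO and 169 to 221 CPM in WT (adjusted p = 0.262). In the other direction, Slc25a22, a glutamate carrier, was at 73.1, 89.6 and 82.8 CPM across KO replicates 1 to 3, against 61.2, 61.6, 63.9 and 56.0 CPM across WT replicates 1 to 4. Every KO library was above every WT library (log2 difference 0.43 ± 0.12, SE; adjusted p = 0.128). Gpd2, the mitochondrial glycerol phosphate dehydrogenase, was at 47.3 to 64.5 CPM in KO and 39.9 to 45.3 CPM in WT (adjusted p = 0.230).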

How the data were processed

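For 3 ACLY KO and 4 WT libraries the authors deposited raw counts per gene. A second deposited table holds log2 CPM. The submitters' processing notes name Trim Galore 0.6.0, STAR 2.7.8, DESeq2 and the build mm10, with no role or order. The sources used here give neither the counting tool nor its annotation or strand setting. The deposited log2 values equalled, within 4.99e-09, those that edgeR gives from the counts with TMM scaling and a prior count of 2. Of 2810 identifiers without a symbol, 2794 were named from GENCODE M21, which also gave coordinates and exon lengths.

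CPM were computed from the counts with TMM scaling. All 16156 genes were fitted with edgeR 4.0.16 in R 4.3.3 (quasi-likelihood, genotype only, threshold 0.05; filterByExpr removed 0 genes). DESeq2 1.42.0 and limma 3.58.1 were alternatives. A floor of 3 counts was worth 0.0397 to 0.0801 CPM, and floors cover counting error only. Scripts were tested on simulated data. The members, lists, motifs and tests were chosen with earlier results of these data known. All members were named, with every library's value at an unadjusted p under 0.05, for separate groups, for the 5 pairs and for the 3 highest per kilobase. Adjacent genes were named at an unadjusted p under 0.05, and marker genes as the 2 highest of each list. Groups came from the sample titles.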

Additional observations from a re-analysis of the deposited data

Results flagged for a closer look

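In 6 of the 27 members 1 WT library lay far from the other 3, by Dixon's criterion for groups of 4, and in each it was WT replicate 4. It was high for Idh3a (262 CPM, where WT replicates 1 to 3 had 150.5 to 159 CPM), Idh2 (74.4 CPM, against 43.6 to 46.3 CPM) and Idh3g (198 CPM, against 126 to 136 CPM). It was also high for Pcx (9.003 CPM, against 3.46 to 4.30 CPM) and Slc25a13 (25.7 CPM, against 6.26 to 6.33 CPM). For Aco1 it was low (23.7 CPM, against 48.8 to 53.8 CPM). Chance flags about 1 in 20 such groups when the groups are independent. Through WT replicate 4, 22.2% of the members met the criterion, against 12.7% of all genes. Of the 16156 genes, 2370 met it through any WT library. The flagged members share 1 library, so they are not independent, and their share was not tested against that of all genes. The same library held 1844 CPM of proliferation markers, and the part of these in the flags was not tested. The KO group of 3 was not checked.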

How the results depend on the processing

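No alternative called a member higher. By genes called higher and lower over the whole table, DESeq2 gave 1032 and 520, limma voom 860 and 272, and edgeR without KO replicate 1 and WT replicate 4 together 864 and 668, against 0 and 0. Leaving out 1 library gave 0 to 142 higher and 0 to 48 lower. Members called were 2 with DESeq2, 2 with limma voom and 1 without those 2 libraries, where the members' median log2 difference was 0.026. Of 27 members 13 kept their sign in all 15 alternatives. The fit with no filter is among these and could turn no sign, because filterByExpr removed 0 genes and the main fit was repeated. Signs turned with upper-quartile scaling for Idh3g (0.0053). With limma voom they turned for Cs (0.00031), Aco1 (-0.12), Idh3g (0.078), Suclg2 (0.0074), Mdh2 (0.15), Pcx (-0.14) and Got2 (0.055). Without both libraries they turned for Cs (0.062), Aco1 (-0.17), Idh3b (0.026), Idh3g (0.10), Suclg1 (0.0255), Suclg2 (0.10), Mdh2 (0.18), Pcx (-0.54), Glud1 (0.055) and Got2 (0.065). The cause was not tested.

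With 1 library left out, the range was -0.25 to 0.082 for Cs, -0.16 to 0.15 for Aco1, -0.12 to 0.13 for Idh3g, -0.15 to 0.0011 for Suclg1, -0.26 to 0.059 for Suclg2, -0.47 to 0.071 for Fh1 and -0.17 to 0.17 for Mdh2. It was -0.96 to 0.83 for Pcx, -0.25 to 0.031 for Glud1, -0.03 to 1.25 for Gpt2, -0.28 to 0.13 for Got2, -0.28 to 0.0071 for Slc25a11 and -0.088 to 0.11 for Slc25a3. The log2 ratio difference of Idh1 to Idh2 ranged from -0.15 to 1.04.

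Same-numbered KO and WT libraries did not deviate together (correlations -0.11, -0.05 and 0.14), so the numbers were not taken as pairs. With the replicate number as a block 0 genes were called, and signs turned for Cs (0.072), Aco1 (-0.17), Idh3g (0.12), Fh1 (0.033), Mdh2 (0.17) and Got2 (0.13). Sucla2 (-0.63) and Me2 (-0.48) kept their direction in that fit. WT replicate 4 has no KO library of its number, so the block fit takes no genotype difference from it. The same genes turned when WT replicate 4 was left out, so the block fit is not a separate check from that one. Gpt2, Pcx and Slc25a13 rest on few reads, from 13, 67 and 69 in the shallowest case.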

Other observations

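Among the KO libraries, replicate 2 had the lowest Acly (62.0 CPM, against 209 and 262 CPM in KO replicates 3 and 1), the highest Idh2 (105 CPM, against 55.2 and 57.2 CPM) and the lowest Idh1 (14.1 CPM, against 24.5 and 40.1 CPM). It also held the lowest Trbv12 share, 23.2%. Slc25a1, the mitochondrial citrate carrier, had 40.8, 39.1 and 27.4 CPM across KO replicates 1 to 3, against 27.9, 28.4, 30.2 and 24.0 CPM across WT replicates 1 to 4; it is named here because of these values. These are values of single libraries and were not tested.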
